A study of Daphnia magna with 20 samples.

Results

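This section describes 200 transcript targets of the water flea Daphnia magna whose levels lay above control and above dissolved ions at both doses of a lithium cobalt oxide (LCO) nanomaterial, chosen out of 26646 targets measured. RNA was sequenced from whole wild type animals of the strain labelled WT, aged 5 days and exposed for 48 h in moderately hard water. Each of 4 groups had 5 libraries, made from pools of 10 animals. They were 10 mg/L LCO, 1 mg/L LCO, ions (lithium at 66 µg/L and cobalt at 15 µg/L, both as chlorides), and control in water alone. All groups were fed alfalfa suspension during the exposure. The ion group carried the lithium and cobalt that the 10 mg/L suspension releases over the same time, so no ion group was matched to 1 mg/L. Replicate 1 at 10 mg/L carries a treatment tag that reads untreated and was placed by its title.

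LCO is the layered oxide used as the positive electrode of many lithium-ion batteries. In water part of its lithium and cobalt dissolves and the rest stays as particles. Daphnia magna feeds by filtering particles from the water into its gut, so animals in a suspension meet both the particles and the dissolved metals, and the ion group meets only the metals. A target whose level lies high with the suspension and not with its ions is therefore the kind of transcript that such a design sets out to find.

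The targets were selected on their measured levels in these same libraries. For each target the median of CPM + 0.5 was taken over the 5 libraries of a group, where CPM is the estimated count scaled by the library's total count. A target was kept when the medians at 10 mg/L and at 1 mg/L were each at least 1.5 times those of control and of ions, the median at 10 mg/L was under 1.5 times that at 1 mg/L, and the median at 10 mg/L was at least 2. These conditions were met by 204 targets, and the 200 with the largest value of the smallest of the 4 ratios were kept. The comparisons of LCO with control, of LCO with ions and of the doses thereby entered the choice. Values from them are a description, and where calls of the fit over all targets are counted in them, the counts describe how the members differ and are not read as tests. The files pair no gene names with the identifiers, and 0 of the 26646 matched the RefSeq gene table for the species, so targets are given by identifier and no function is stated for them.

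Total estimated counts per library ran from 20744445 to 44181066, with 27241458 to 44181066 at 10 mg/L, 25111305 to 37878255 at 1 mg/L, 20744445 to 29234877 in ions and 24422294 to 42458093 in control. KZS05871, among the scarcest described, rested on a mean of 60.0 counts at 10 mg/L, 44.2 at 1 mg/L, 23.8 in ions and 30.0 in control.

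By the root mean square difference in log2 CPM over the tested targets, 3 libraries lay closer to the mean of a different group than to the mean of the remaining libraries of their own. LCO 1 mg/L replicate 5 lay at 0.85 from the 10 mg/L group and 0.98 from its own, ions replicate 5 at 0.61 from the 10 mg/L group and 0.74 from its own, and control replicate 1 at 1.01 from the 1 mg/L group and 1.07 from its own. The other 17 lay closest to their own group. Results that rest on these libraries are given with and without them.

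Most of the targets lay near the threshold. The smallest of the 4 ratios ran from 1.5 to 12 with a median of 1.68. It was under 2 in 151 targets, at least 2 in 49, at least 3 in 11 and at least 4 in 4. The ratio that came out smallest was the one of 1 mg/L over ions in 76 targets, 1 mg/L over control in 58, 10 mg/L over ions in 39 and 10 mg/L over control in 27. In the band from 1.5 to 1.6 stood 71 targets that met the rule, and 83 further targets that met the other conditions had a smallest ratio between 1.4 and 1.5. Another 36 targets met the 4 ratios and the level but were at least 1.5 times higher at 10 mg/L than at 1 mg/L.

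**Figure D1:**
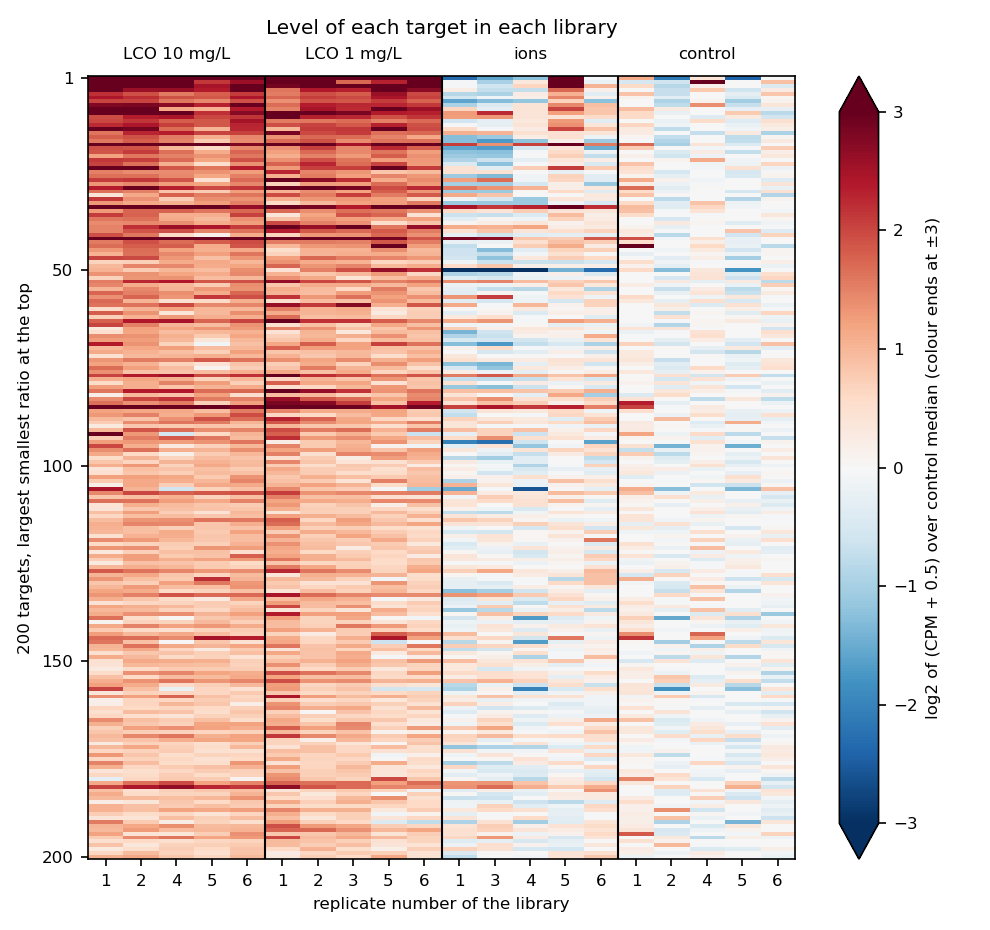
Level of each of the 200 targets (rows, largest smallest ratio at the top) in each of the 20 libraries (columns, by group and replicate number), as log2 of CPM + 0.5 over the control median, with the colour ending at ±3. The 10 LCO columns are red over nearly the whole height, and some of the upper rows are also red in ions replicate 5.

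At the median of the 200 targets, the ratio over control was 2.13 at 10 mg/L and 2.01 at 1 mg/L, and the ratio over ions was 2.01 at 10 mg/L and 1.88 at 1 mg/L. In the fit across all targets described with the processing, 170 were called higher at 10 mg/L than in control, where 13.7% of the 16163 tested targets were. At 1 mg/L against control 141 were called higher, beside 5.64% of the tested targets. Against ions 153 were called higher at 10 mg/L (11.3% of the tested targets) and 163 at 1 mg/L (20.1%). The rule used these comparisons, so nothing is read from the counts except how the targets differ among themselves: 114 were called in all 4 comparisons and 16 in none. Those 2 shares were not computed for all tested targets. With the 3 libraries closer to a different group left out, the counts against control were 177 at 10 mg/L and 143 at 1 mg/L, beside 2308 and 1125 of 16230 tested targets. Against ions they were 161 at 10 mg/L and 163 at 1 mg/L, beside 2856 and 3957 of the tested targets. A median ignores up to 2 high or low libraries of 5, and the targets called in none were among the 129 whose LCO and other libraries overlapped.

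In whole animals, more cells of a type and more RNA per cell cannot be told apart. With that limit, the cleanest separation, chosen after the values were seen, was in KZS13521 and KZS04751, which had the widest gap between the lowest LCO library and the highest other one. KZS04751 stood at 55.2, 55.3, 40.6, 36.2 and 51.3 CPM in the libraries at 10 mg/L (replicates 1, 2, 4, 5 and 6) and at 34.9, 50.2, 49.1, 58.1 and 45.9 CPM at 1 mg/L (replicates 1, 2, 3, 5 and 6). In ions it stood at 4.06, 5.04, 5.64, 21.4 and 5.33 CPM (replicates 1, 3, 4, 5 and 6) and in control at 13.1, 6.71, 14.2, 6.14 and 14.2 CPM (replicates 1, 2, 4, 5 and 6). Its lowest LCO library lay above every other library, and within the ion group replicate 5 lay far above the rest. Its median ratios over control were 3.80 at 10 mg/L and 3.64 at 1 mg/L.

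KZS13521 was much scarcer but as clean. It stood at 4.74, 6.25, 5.16, 5.72 and 6.36 CPM at 10 mg/L and at 4.65, 4.70, 4.56, 5.89 and 4.61 CPM at 1 mg/L, in the same order of replicates. In ions it stood at 1.00, 1.03, 1.98, 2.77 and 2.47 CPM, and in control at 1.99, 1.27, 1.48, 0.983 and 1.27 CPM. All 10 LCO libraries lay within a narrow band, and no library of ions or control reached it.

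Such separation held for 71 of the 200 targets, in which every LCO library lay above every library of ions and control, beside 0.829% of the tested targets. In 6 of them the lowest LCO library was at least 1.5 times the highest other library, and in 0 it was at least 2 times. Among the 49 targets with a smallest ratio of at least 2, 30 were separated in this way, and among the 151 below it, 41 were. In 48 of the 129 overlapping targets a single library of ions or control reached into the LCO range, and in 41 a single LCO library reached down to the others. With LCO 1 mg/L replicate 5, ions replicate 5 and control replicate 1 left out, 100 targets were separated, beside 1.48% of the tested targets. Leaving libraries out cannot lower this count. The rule chose the targets on the same levels, so these shares are a description and not a test.

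The targets with the largest smallest ratio were not the cleanest ones. KZS17998 had the largest, at 12, and stood at 179.9, 81.5, 71.7, 46.6 and 85.9 CPM at 10 mg/L and at 56.5, 53.5, 70.2, 133 and 40.7 CPM at 1 mg/L. In ions it stood at 0.482, 1.10, 1.54, 38.8 and 4.14 CPM, and in control at 9.76, 0.594, 5.79, 0.393 and 4.26 CPM. The LCO libraries still lay above all others, but ions replicate 5 came close to the lowest of them, and the remaining ion libraries and the control libraries lay below 10 CPM.

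KZS18354 came second, with a smallest ratio of 9.81. It stood at 32.2, 35.9, 25.4, 10.1 and 13.9 CPM at 10 mg/L and at 25.1, 50.6, 7.50, 11.5 and 23.3 CPM at 1 mg/L. Its values in ions were 1.85, 0.746, 2.51, 22.3 and 1.62 CPM, and those in control were 1.22, 1.11, 23.9, 1.93 and 3.93 CPM. Ions replicate 5 and control replicate 4 lay inside the LCO range while the other ion and control libraries lay below it, so the medians of ions and control stayed low and the ratios large. It was among the 16 targets called in none of the 4 comparisons.

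**Figure D2:**
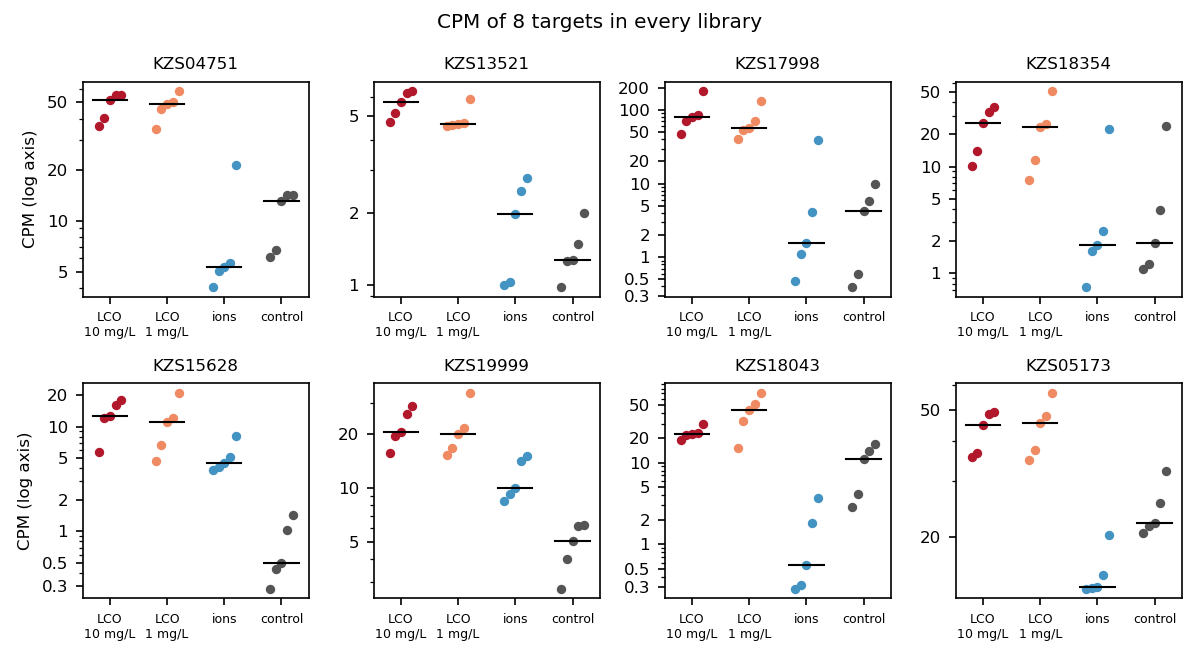
CPM on a log axis of 8 targets in every library, by group, with points for libraries, in order of value, and a line for the group median. KZS04751 and KZS13521 show LCO above all other libraries, KZS17998 and KZS18354 show 1 high ion library, KZS15628 and KZS19999 show ions above control, and KZS18043 and KZS05173 show ions below control.

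At the other end of the rule stood KZS05871 and KZS08855, the last targets kept, with smallest ratios of 1.5018 and 1.5017. KZS08855 stood at 30.9, 33.3, 26.2, 23.1 and 29.1 CPM at 10 mg/L and at 18.1, 24.7, 22.4, 33.1 and 20.1 CPM at 1 mg/L, against 8.56, 14.7, 13.7, 19.5 and 25.6 CPM in ions and 12.8, 14.5, 15.8, 14.5 and 12.7 CPM in control. Its ion libraries spread over more than the distance between the medians of ions and of 1 mg/L. KZS05871 had medians of 1.65 CPM at 10 mg/L, 1.53 CPM at 1 mg/L, 0.853 CPM in ions and 0.826 CPM in control. The nearest targets left out were KZS19165 and KZS01528, with smallest ratios of 1.5016 and 1.5012. KZS19165 had medians of 14, 12, 7.85 and 7.28 CPM in LCO 10 mg/L, LCO 1 mg/L, ions and control, and its LCO libraries lay above ions and control in all but 1 case, at 8.68 CPM in LCO 1 mg/L replicate 5.

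Levels between targets were compared per length, as TPM averaged over the 10 LCO libraries. They ran from 0.138 to 15712 TPM with a median of 6.71, where the tested targets had a median of 10.4. At least 100 TPM was reached by 13 of the 200 targets (6.5%), beside 7.41% of the tested targets, and 15 stayed under 1 TPM. The 200 targets together summed to 18605 to 22436 TPM in the libraries at 10 mg/L and 22092 to 27229 TPM at 1 mg/L. In ions the sum was 11128.5 to 14638 TPM, and in control 12064 to 16596 TPM. A single target made up most of each sum.

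That target, KZR97647, was the most abundant of the 200. Its length is 338 bases. It averaged 14536 ± 1469 TPM at 10 mg/L, 16888 ± 2433 at 1 mg/L, 9630.0 ± 1534 in ions and 10479 ± 1249 in control (SD, n = 5 each). In CPM it stood at 2300.1, 2107, 1953, 2403 and 2427 at 10 mg/L and at 2831, 2444, 2287, 2175 and 2313 at 1 mg/L. The ion libraries held 1453, 1755, 1147, 1325 and 1309 CPM, and the control libraries 1830.0, 1359.9, 1489, 1501 and 1277 CPM. Every LCO library lay above every other library, by a modest margin at the highest control and ion libraries. Without this target, the sums were 5489 to 7537 TPM at 10 mg/L and 6332 to 7970 TPM at 1 mg/L. They were 2590 to 3620 TPM in ions and 2504 to 4175 TPM in control.

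KZR97872, the next most abundant at 1081 TPM, was of another kind. It stood at 618, 509, 571, 492 and 421 CPM at 10 mg/L and 413, 305, 433, 915 and 750.2 CPM at 1 mg/L. Its ion libraries held 497, 256, 327, 263 and 275 CPM, and its control libraries 682, 258, 869.5, 258 and 242 CPM. Control replicates 1 and 4 lay above every library at 10 mg/L, and the other control libraries lay below all 10 LCO libraries. In 18 of the 20 libraries its count was not whole, as happens where reads are divided between similar targets, so its level is uncertain.

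**Figure D3:**
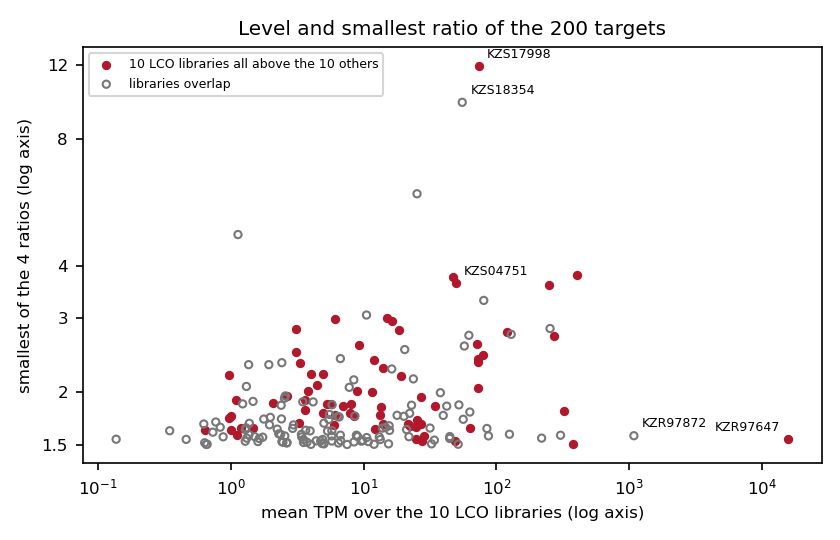
Smallest of the 4 ratios (log axis) against mean TPM over the 10 LCO libraries (log axis) for the 200 targets, with filled points where all 10 LCO libraries lay above all 10 others. Filled points stand among scarce and abundant targets alike, up to KZR97647 at 15712 TPM, and KZS18354, with the second largest ratio, is an open point.

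Levels at the doses were close at the median, which the rule in part required. The ratio of 10 mg/L over 1 mg/L ran from 0.504 to 1.49 with a median of 1.06, and its upper end was set by the rule. It was above 1 in 134 targets and below 1 in 66, with quartiles of 0.961 and 1.18. By edgeR, 0 of the 200 targets were called between the doses at an adjusted p of 0.05, beside 6.28% of the tested targets. An unadjusted p under 0.05 was found in 7, and its share of all tested targets was not computed. The number called lower at 10 mg/L was 1 with DESeq2 (1172 of 16361 tested targets) and 1 with only the LCO groups in the fit (1242 of 15668). It was 1 without LCO 1 mg/L replicate 5 (965 of 16323) and 2 without control replicate 1 (907 of 16316). With the 3 libraries closer to a different group left out it was 6, beside 1287 of 16230 tested targets. The count of 0 thus depends on the libraries and on the method. The rule removed targets that were higher at 10 mg/L, so the counts say nothing of that direction, and a missed threshold does not show that the doses act alike.

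The rule set no lower end to that ratio, and in 4 targets the level at 1 mg/L was at least 1.5 times that at 10 mg/L. The lowest ratios were in KZS12254 and KZS18043. KZS12254 stood at 14.2, 11.7, 13.3, 7.27 and 10.6 CPM at 10 mg/L and 32.7, 31, 19.8, 8.24 and 23.6 CPM at 1 mg/L, against 5.83, 8.24, 7.42, 4.86 and 6.42 CPM in ions and 23.4, 3.38, 4.22, 4.29 and 3.69 CPM in control. Replicate 5 at 1 mg/L lay far below the others of its group, and control replicate 1 lay at the level of LCO at 1 mg/L.

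The rule set no direct condition on ions against control, but it used the medians of both groups. A target higher in one of them had to be higher still with LCO to be kept. The ratio of ions over control lay within 1.5-fold in 77.5% of the 200 targets, beside 63.6% of the tested targets. The counts below thus describe these targets and do not test whether the dissolved metals alone move them. Of the 200 targets 24 were higher (12%) and 18 lower (9%) with ions than in control at a Benjamini-Hochberg adjusted p of 0.05 (edgeR, quasi-likelihood). Of the tested targets 25.4% were called higher and 24.7% lower. Either way 42 of the 200 (21%) were called, beside 50.1% of the tested targets. The median log2 fold change was 0.06 over the 200 targets and 0.03 over all tested. All 200 also passed the count filter when ions and control alone were used. Both shares were below those of the tested targets, and the spread between libraries was wider: the median SD of log2 CPM was 0.511 in ions and 0.45 in control for the 200 targets, against 0.327 in ions and 0.298 in control for all tested. The parts of the rule and of that spread in the low share were not tested. With only these 2 groups in the fit, 13 were higher and 10 lower, beside 3027 and 3398 of 15304 tested targets. The number lower was 30 without ions replicate 5, beside 4386 of 16315 tested targets. It was 11 without control replicate 1, beside 3589 of 16316. With the 3 libraries that lay closer to a different group left out, 31 were higher and 23 lower, beside 4143 and 4164 of 16230 tested targets.

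**Figure D4:**
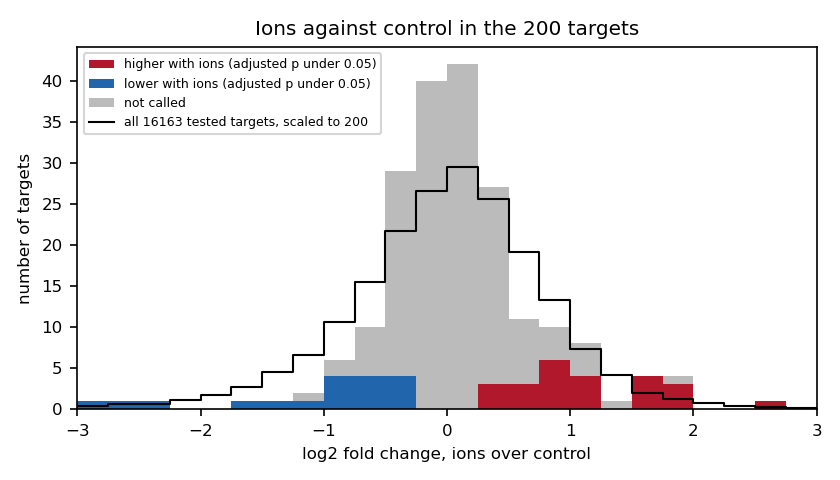
Number of the 200 targets by log2 fold change of ions over control, in steps of 0.25, coloured by the call at an adjusted p of 0.05, with the line showing all 16163 tested targets between -3 and 3 scaled to 200. The 24 targets called higher lie right of 0.4, the 18 called lower lie left of -0.37, and the 158 others lie between -1.06 and 1.99.

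The 24 targets called higher with ions had log2 fold changes of ions over control from 0.40 to 2.72 with a median of 1.01. With LCO their median log2 fold change was 2.01 at 10 mg/L and 2.08 at 1 mg/L, also relative to control, and the rule itself placed their medians with LCO above those with ions. A description of the 200 as raised by the particles and not by the ions is thus not met by these 24, which were higher with ions too. The call had the smallest p in KZS15628. It stood at 5.19, 3.87, 4.48, 8.09 and 4.14 CPM in ions, against 1.42, 0.284, 1.04, 0.433 and 0.501 CPM in control (edgeR log2 fold change 2.72, SE 0.47, adjusted p 0.000153). With LCO it stood at 16, 12.7, 12.1, 18 and 5.74 CPM at 10 mg/L and 11.1, 6.72, 4.67, 21.1 and 12.1 CPM at 1 mg/L. Every ion library lay above every control library, and the LCO and ion libraries overlapped. Its counts were fractional in 8 libraries, so its level is uncertain.

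KZS19999 was second, at 14.1, 15.1, 10.0, 8.45 and 9.33 CPM in ions, against 5.07, 6.25, 4.03, 6.17 and 2.74 CPM in control (log2 fold change 1.18, SE 0.25, adjusted p 0.000856 in edgeR). It stood at 15.7, 26, 28.8, 19.6 and 20.7 CPM at 10 mg/L and 34.1, 21.7, 20.0, 15.3 and 16.8 CPM at 1 mg/L. The groups formed steps here, with control lowest, ions between and all LCO libraries highest, an order of ions and LCO that the rule fixed for the medians.

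The 18 targets called lower with ions had log2 fold changes from -2.92 to -0.37 with a median of -0.76. Of these, 11 were called higher than control at 10 mg/L (13.7% of the tested targets) and 10 at both doses. The rule used these comparisons. KZS16035 was among the 18 (log2 fold change -2.70, adjusted p 0.0403 in edgeR), though its median ratio of ions over control was 1.19. Its control replicate 1 stood at 33.8 CPM and the remaining controls at 0.246 to 1.46 CPM, against 0.281 to 2.29 CPM in ions. KZS18043 stood at 0.563, 0.32, 0.289, 3.69 and 1.81 CPM in ions, against 16.7, 4.13, 14, 2.83 and 11 CPM in control (edgeR log2 fold change -2.92, SE 0.63, adjusted p 0.00104). With LCO it stood at 23.3, 19, 22.4, 21.5 and 29.8 CPM at 10 mg/L and at 15, 32.4, 43.6, 71.2 and 51.6 CPM at 1 mg/L. Only ions replicate 5 reached the lowest control library, and control overlapped with LCO at 1 mg/L through its replicate 1. KZS18043 was not called higher at 10 mg/L than in control (adjusted p 0.139 in edgeR).

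KZS05173 gave the tighter example. It stood at 20.3, 13.9, 13.7, 13.8 and 15.1 CPM in ions, against 32.2, 20.5, 21.6, 22 and 25.5 CPM in control (log2 fold change -0.72, SE 0.16, adjusted p 0.00113 in edgeR), and no ion library reached the control range. With LCO it stood at 35.6, 36.6, 48.5, 49.2 and 44.8 CPM at 10 mg/L and at 56.6, 48, 45.6, 34.8 and 37.3 CPM at 1 mg/L, above every control library.

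The libraries differed in how far they carried the pattern. The median log2 level over control of the 200 targets was 0.96 to 1.22 in the libraries at 10 mg/L and 0.88 to 1.22 at 1 mg/L. In ions it was -0.01 to 0.19 and in control -0.06 to 0.18. Since all libraries had a part in the choice, the targets were chosen again 20 times, each time without 1 library, and that library was then measured on targets it had not helped to choose. The medians were then 0.93 to 1.19 at 10 mg/L and 0.89 to 1.17 at 1 mg/L, against 0.11 to 0.27 in ions and -0.14 to 0.32 in control. No left-out LCO library had a median near the range of ions and control, and the ranges of ions and control overlapped. Target by target, the left-out library was set against the higher of the control and ion medians. At least 1.5 times that level was reached by 68.5% to 86.5% of targets at 10 mg/L. At 1 mg/L it was 52% to 84.5%, in ions 3.26% to 18.7% and in control 0.559% to 17%. These values are a description, since each choice shares 19 libraries with the full one.

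**Figure D5:**
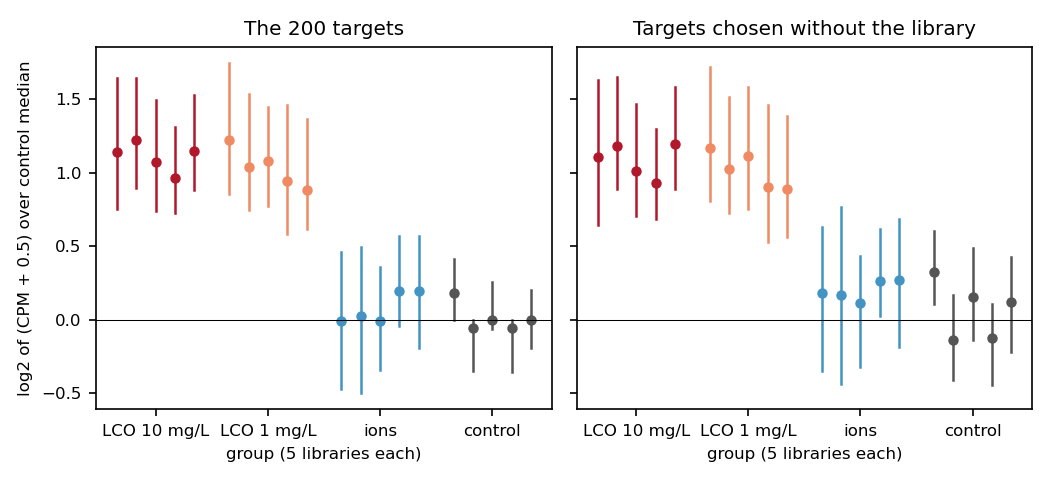
Median (points) and quartiles (lines) of log2 CPM + 0.5 over the control median in each library, on the 200 targets (left) and on targets chosen without that library (right). In both panels the 10 LCO medians lie at 0.88 or above, and every ion and control median lies at 0.32 or below.

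The lists from these 20 choices held 161 to 184 of the 200 targets. A total of 112 targets were chosen every time, among them 45 of the 49 with a smallest ratio of at least 2, and 13 were lost in 10 or more of the 20 choices. The number that met the rule ran from 174 without LCO 1 mg/L replicate 3 to 233 without control replicate 1.

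Single libraries stood out on parts of the set. On the 49 targets with a smallest ratio of at least 2, ions replicate 5 had a median log2 level of 0.66 over control, and the other ion libraries lay at -0.43 to 0.23. It was the highest ion library in 66 of the 200 targets and at least 1.5 times the next in 28. Control replicate 1 was the highest control library in 79 targets and at least 1.5 times the next in 18, with a median log2 level of 0.32 on the same 49. LCO 1 mg/L replicate 1 was the highest of its group in 107 targets and at least 1.5 times the next in 28. LCO 1 mg/L replicates 5 and 6 lay below the highest ion or control library in 64 and 66 targets, the most of any LCO libraries.

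One of the 200 targets, KZS16035, was among 241 targets whose level in control replicate 1 exceeded each of the remaining controls by a factor of 8 or more. It stood at 3.63, 4.06, 4.05, 2.32 and 4.35 CPM at 10 mg/L and 2.08, 2.69, 2.79, 12.7 and 2.61 CPM at 1 mg/L, against 0.281, 0.782, 1.69, 2.29 and 1.05 CPM in ions and 33.8, 0.801, 1.46, 0.629 and 0.246 CPM in control. Control replicate 1 lay above every LCO library, and the other 4 control libraries lay below every LCO library. Of the 237 targets that stood out in the same way in LCO 1 mg/L replicate 5, 0 belonged to the 200.

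Within the groups, the number of the 200 targets above their group mean ran from 54 in control replicate 5 to 167 in control replicate 1. The median pairwise correlation of their deviations from the group means over the 20 libraries was 0.11 across pairs of targets, which share libraries and depth. That correlation was not computed for all tested targets. The first principal component of these deviations held 34.4% of the variance, beside 33.5% for all tested targets.

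Some features were not used by the rule. The length of the targets had a median of 2099 bases and quartiles of 1212.5 and 3642, beside a median of 1866 and quartiles of 1025.5 and 3356 for the tested targets. Fractional counts in at least 1 library occurred in 29 of the 200 (14.5%), beside 24% of the tested targets. Identifiers that follow each other directly occurred in 8 runs with 17 targets, and what an identifier's number says about position was not examined. The longest run, described after its values were seen, was KZS15149, KZS15150 and KZS15151, with smallest ratios of 2.73, 2.78 and 2.02 and mean levels with LCO of 272, 119 and 3.85 TPM. KZS15149 stood at 285, 326, 239.6, 167 and 258 CPM at 10 mg/L and 181, 249, 209, 231 and 182 CPM at 1 mg/L, against 32.2, 31.9, 74.6, 115 and 69.2 CPM in ions and 76.4, 56, 90.1, 45.7 and 88.3 CPM in control. KZS15150 stood at 180.2, 211, 168, 103 and 160.0 CPM at 10 mg/L and 193, 227, 161, 187 and 189 CPM at 1 mg/L, against 24.4, 17.8, 25.7, 69.4 and 28 CPM in ions and 60.3, 32.2, 60.0, 35.8 and 72.1 CPM in control. In both, all LCO libraries lay above all others and ions replicate 5 was the highest ion library. None of the 3 had fractional counts.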

How the data were processed

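Each library has a table of 26646 targets. Estimated counts per target, not normalized, and TPM, scaled by effective length, were deposited per the file headers, along with target lengths. For the counting program, annotation and build, the sources used here give nothing. Libraries were grouped by title. The labels do not say whether pools came from separate vessels, so p-values measure the spread between these pools. They give no batch.

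CPM was the estimated count scaled by the library total, and printed levels are these CPM unless TPM is named. The targets, lists and tests were chosen with earlier results of these data known. For tests, estimated counts were rounded, filtered with filterByExpr (minimum count 10, minimum total count 15; 16163 targets, with all 200 among them), scaled by TMM and fitted in edgeR 4.0.16 (R 4.3.3) with all 20 libraries and group as the only term. The test was the two-sided quasi-likelihood test, with Benjamini-Hochberg adjustment over all tested targets and a threshold of 0.05. SE is the size of the log2 fold change over the square root of F. The code was tested on simulated counts for ions against control, with the same dispersion for every target and no outlying library. That checked the code and not the spread of these libraries. Alternatives used DESeq2 1.42.0, limma 3.58.1 on log2(TPM + 1), other filters, the replicate number as a block, and each library left out. Named targets were those with the largest and smallest of the 4 ratios, the nearest left out, the highest TPM, the smallest p with ions in each direction and the lowest ratio of the doses, 2 of each. KZS04751, KZS13521, KZS16035 and the run of 3 identifiers were added after the values were seen. Lists by product name needed gene names and were not run. A count was called fractional when it lay over 0.01 from a whole number.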

Additional observations from a re-analysis of the deposited data

Results flagged for a closer look

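The libraries of each group were checked for a value far from the rest in 88 groups of 5, made of 19 named targets and 3 summaries. In 12 the gap to the nearest library was over 0.71 of the group's range. Chance passes about 1 in 20 where values are independent and normally distributed. Single targets were checked on CPM without a log, and the groups share the same libraries, so that rate is only a rough guide. That rate does not apply to KZS16035 in control, which was named for its high level in control replicate 1, nor to other targets named for extreme values. Ions replicate 5 was the highest of its group in KZS17998 (0.905), KZS18354 (0.918), KZS15150 (0.802) and KZS04751 (0.909). Control replicate 1 was the highest of its group in KZS12254 (0.955), in KZS16035 (0.964) and in the median log2 level of the 200 targets (0.755). LCO 1 mg/L replicate 5 was the highest of its group in KZS16035 (0.933) and KZS13521 (0.897). The other cases were control replicate 4 as the highest in KZS18354 (0.876), ions replicate 1 as the highest in KZS05173 (0.787), and LCO 10 mg/L replicate 1 as the lowest in KZS01528 (0.89). The comparison of ions with control without ions replicate 5 and without control replicate 1 stands with the results.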

How the results depend on the processing

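The number of targets that met the rule was 168 with TMM-scaled library sizes, 168 with TPM in place of CPM, 204 with means in place of medians, 222 with an offset of 0.1 and 49 with a fold of 2, and 174 to 233 without single libraries. The kept lists shared 160, 128, 149, 180 and 49 targets with the 200, in the same order of settings. Without the 3 libraries nearer to another group, an alternative chosen after seeing the data, 232 met the rule and 151 of the kept were shared. With ions against control, the number higher was 13 with only the groups compared and 16 to 29 without single libraries, and the number lower was 10 with only the groups compared and 11 to 30 without single libraries. Over all tested targets, 3343 to 4184 were higher and 3589 to 4386 lower without single libraries of ions or control. With the replicate number as a block 19 were higher and 11 lower, beside 3484 and 3519 of 16163 tested targets. Same-numbered libraries did not all deviate together (correlations from -0.43 to 0.49). Libraries with different numbers were not compared in this way, so whether the numbers pair libraries was not settled. Without the 3 libraries 31 were higher and 23 lower. KZS15628, KZS19999, KZS18043 and KZS05173 kept their direction and call in every alternative that gave a value, and KZS15628 had a log2 fold change of 0.72 on limma's log2(TPM + 1) scale. Held-out medians moved by less than their SD with TMM. Depth limits the scarcest targets.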
